A study of Arabidopsis thaliana with 18 samples.

Results

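Starch synthesis and breakdown were followed through the genes that the array annotation calls APL3, APL4, DPE1 and PWD, in leaves of salt-treated Arabidopsis thaliana given extracts of the brown alga Ascophyllum nodosum. The 4 symbols were chosen by name, with earlier results of these data known, and matched 5 probe sets among 22746 that are not controls. The symbol PWD was carried by 2 loci. AT5G26570 is called PWD below, and AT4G24450, which has ATGWD2 among its synonyms in the RefSeq gene table, is called GWD2. All 5 members had 1 probe set each and passed the filter on low signals, which left 13648 probe sets for testing.

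Leaves store part of the carbon fixed by day as starch in the chloroplast and break it down at night. ADP-glucose pyrophosphorylase makes the glucose donor for starch and is built from small catalytic and large, mostly regulatory subunits; APL3 and APL4 encode large subunits known mainly from non-photosynthetic tissue and from leaves fed with sugar. Breakdown begins when dikinases phosphorylate the granule surface. PWD adds phosphate to glucan already phosphorylated by another dikinase, DPE1 recycles short maltooligosaccharides left by the amylases inside the plastid, and GWD2 is a dikinase located outside the plastid.

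The arrays compared 6 groups of 3, each sample from plants that were 2 weeks old and were held in 150 mM NaCl for 24 hours before treatment. The groups are the ethyl acetate sub-fraction of the extract (EAA), the methanol extract (MEA) and the salt reference given 0.1% aqueous methanol on day 5, and the same 3 treatments on day 1. Salt was thus shared by all 18 samples, and no unsalted plants were analysed here. Plant age, time since salt, hour of harvest or batch, where they differed between day 1 and day 5, cannot be told apart from the day. The source names of the 6 reference samples give NaCl alone whereas their titles and descriptions give EAA; the source name was followed, so each comparison with the reference rests on it. The titles call the samples biological replicates without saying whether plantings were separate, and p-values then measure only the spread between these samples. A methanol percentage was read for the reference samples only, so an extract and its solvent cannot be told apart here.

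The labelled tissue was checked with 4 leaf genes that had a named probe set of 12 listed, which read 10.75 to 14.02 on the log2 scale over the 18 arrays, and with 2 root genes of 11 listed, EXPA7 and PYK10, which read 2.92 to 3.97. The 3 arrays of MEA day 5 did not form a tight group. Across 13648 probe sets their median SD was 0.337, against 0.201 with EAA and 0.183 in the reference on day 5 and 0.126 to 0.137 in the day 1 groups. Each array was placed between the reference means of day 1 (position 0) and day 5 (position 1) by its median over 1762 probe sets. These changed at least 2-fold between the reference means and had a limma adjusted p under 0.05 for that change. MEA day 5 replicates 1 and 3 lay at 0.23 and 0.15, near the day 1 arrays, and replicate 2 lay at 0.97. The actin control probe sets compare transcript ends as a measure of RNA integrity, and their log2 signal at the 3′ end minus that at the 5′ end was 2.88, 1.56 and 2.30 in MEA day 5 replicates 1, 2 and 3 and 2.78 in EAA day 5 replicate 1, whereas the other EAA arrays, the MEA day 1 arrays and all reference arrays lay between 1.61 and 2.03. The same measure from the GAPDH control probe sets was 1.06, 0.11 and 0.30 in MEA day 5 replicates 1, 2 and 3. It was 0.79 in EAA day 5 replicate 1 and -0.13 to 0.50 in the remaining arrays, so MEA replicate 3 stood out by actin only. Given the split by position, results with MEA on day 5 are given for all 3 arrays, and also with replicate 2 alone or without it. Since replicate 2 was set apart by its position between the days, on probe sets that were chosen for their change between the days and include APL3, DPE1 and PWD, the values with it alone or without it are descriptions and carry no test.

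**Figure D1:**
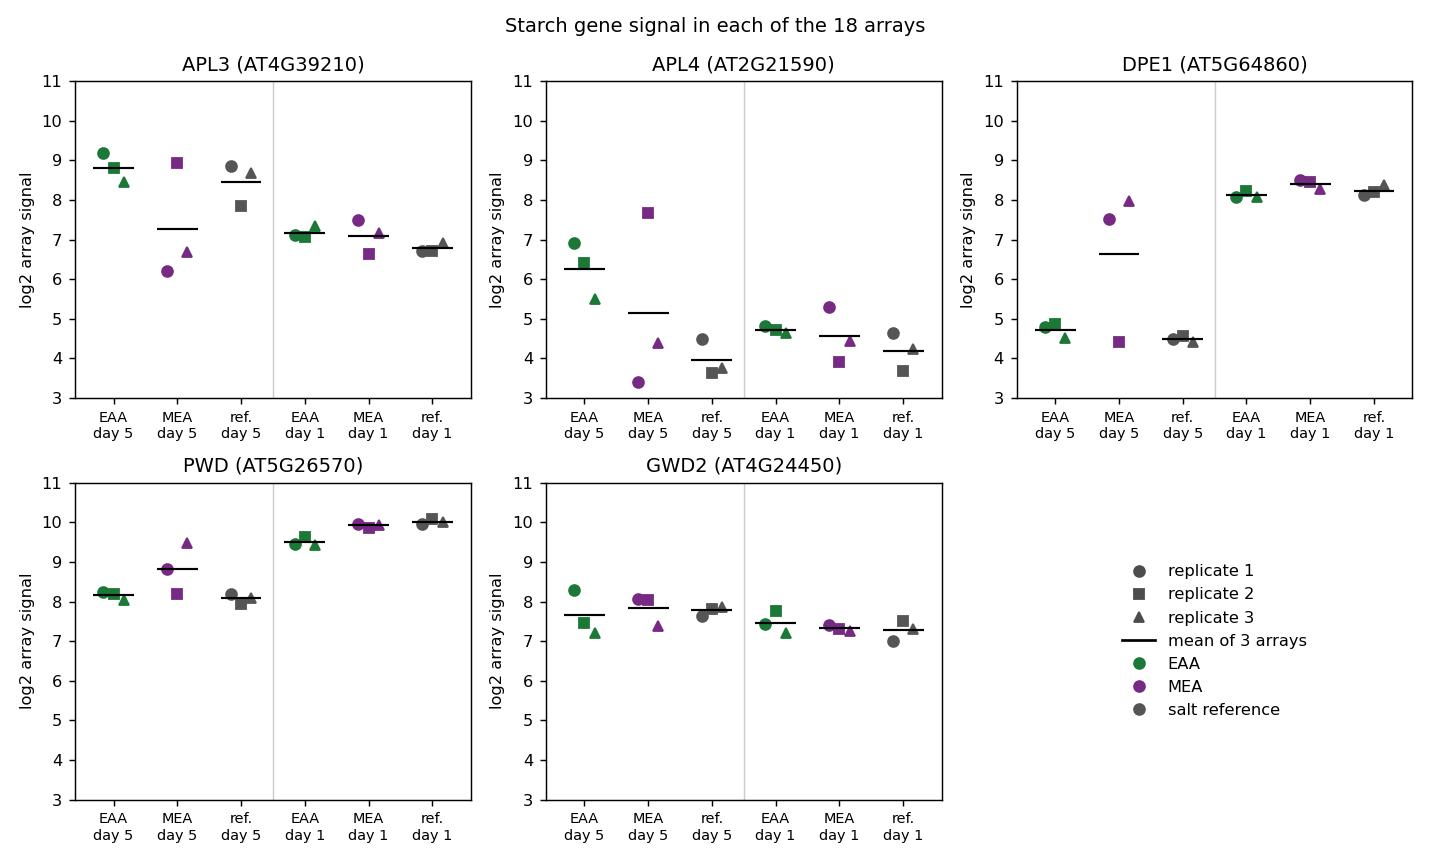
Log2 array signal (vertical axis) of the 5 members in each of the 18 arrays, with the 6 groups along the horizontal axis; symbols mark replicates and bars the mean of 3 arrays. DPE1 and PWD sit lower in the EAA and reference arrays of day 5 than in any array of day 1, and the 3 MEA arrays of day 5 are split.

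APL3 (AT4G39210) was higher on day 5 than on day 1 in EAA leaves and in reference leaves. On day 5 its log2 signal was 9.19, 8.81 and 8.45 with EAA, 6.20, 8.93 and 6.69 with MEA, and 8.84, 7.84 and 8.68 in the reference. On day 1 it was 7.10, 7.05 and 7.34 with EAA, 7.50, 6.63 and 7.17 with MEA, and 6.71, 6.71 and 6.92 in the reference. The days did not overlap with EAA or in the reference, while with MEA only replicate 2 stood above the day 1 arrays. APL3 rose by 1.65 with EAA (standard error of the fit, SE, 0.50; adjusted p = 0.019) and by 1.68 in the reference (SE 0.50, adjusted p = 0.0196), in each case day 5 minus day 1 with 3 arrays per day. These adjusted p-values are from limma with the Benjamini-Hochberg method over all probe sets tested, with 0.05 as the threshold. In bulk leaf RNA a change in the number of cells that make a transcript and a change in RNA per cell cannot be told apart.

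The APL3 calls were near the threshold. Leaving out 1 array at a time kept the rise at 1.46 to 1.83 with EAA and at 1.48 to 1.98 in the reference, but the adjusted p reached 0.0736 and 0.0724. It lost the call with EAA without EAA day 1 replicate 1 or 2 or EAA day 5 replicate 1, and in the reference without day 1 replicate 1 or 2 or day 5 replicate 1 or 3. A fit without the MEA day 5 group, whose spread enters the common variance, gave the same differences with an SE of 0.26 and adjusted p = 0.000112 and 0.000108. With MEA the difference between the days was 0.17 (SE 0.50, adjusted p = 0.877) over all 3 arrays and 1.82 with replicate 2 alone.

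In the fit of all groups without array weights, neither extract moved APL3 past the threshold on either day. On day 1 the 3 EAA arrays all lay above the 3 reference arrays, by 0.38 on average (95% interval -0.68 to 1.45, adjusted p = 1), and MEA differed from the reference by 0.32. On day 5 EAA differed from the reference by 0.36 (interval -0.70 to 1.42) and MEA by -1.18 (interval -2.25 to -0.12, adjusted p = 0.139). The MEA value turned to 0.47 with replicate 2 alone, and without that replicate it was -2.01.

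APL4 (AT2G21590), the other large subunit gene, stood apart from the reference with EAA on day 5. Its log2 signal there was 6.90, 6.40 and 5.49 with EAA, 3.41, 7.66 and 4.38 with MEA, and 4.50, 3.64 and 3.76 in the reference. On day 1 it was 4.81, 4.73 and 4.65 with EAA, 5.30, 3.91 and 4.45 with MEA, and 4.65, 3.67 and 4.24 in the reference. All 3 EAA arrays of day 5 lay above every reference array of either day and every EAA array of day 1, and MEA day 5 replicate 2 was the highest of the 18. The reference arrays lay around 4.01, the value below which probe sets were left out, so its reference signal was close to that limit and the size of any difference from it is uncertain.

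The APL4 difference between EAA and the reference on day 5 was 2.30 (SE 0.75, 95% interval 0.70 to 3.90), and it did not pass (adjusted p = 0.543). The variance behind this SE is pooled over all groups, including the MEA day 5 arrays, in which the SD of APL4 was 2.22, against 0.72 with EAA and 0.46 in the reference of that day. The same difference passed in the fit without the MEA day 5 group (SE 0.38, adjusted p = 0.00707) and, at 2.35, with array weights (adjusted p = 0.00502). It did not pass in the fit of the 6 EAA and reference arrays of day 5, which also holds no MEA array (SE 0.38, adjusted p = 0.213). It stayed between 1.98 and 2.69 with any 1 array left out of the fit of all groups. The lowest of these was without EAA day 5 replicate 1 (1.98), the EAA array with the high actin value, whose part in the result was not tested. In a fit of the 9 day 5 arrays alone, chosen after seeing the data, it did not pass (adjusted p = 1).

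Between the days, APL4 differed by 1.54 with EAA (SE 0.75, adjusted p = 0.12), which passed without the MEA day 5 group (SE 0.38, adjusted p = 0.00374) and in the fit of the 6 EAA arrays alone (adjusted p = 0.00511), by 0.60 with MEA (adjusted p = 0.685) and by -0.22 in the reference (adjusted p = 0.846). The change of the EAA effect between the days, 1.76 (SE 1.07), did not pass (adjusted p = 0.996, and 0.172 without the MEA day 5 group). APL4 with MEA on day 5 rested on replicate 2. Over all 3 arrays it differed from the reference by 1.19 (adjusted p = 0.327), and with replicate 2 alone by 3.69, while without replicate 2 the difference was -0.07. EAA and MEA did not differ past the threshold on day 5 (1.11, interval -0.49 to 2.72), and this difference turned to -1.39 against replicate 2 alone.

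DPE1 (AT5G64860), the plastid disproportionating enzyme, read lower on day 5 than on day 1 in every treatment. On day 5 its log2 signal was 4.80, 4.87 and 4.52 with EAA, 7.51, 4.41 and 7.98 with MEA, and 4.48, 4.57 and 4.41 in the reference. On day 1 it was 8.08, 8.23 and 8.08 with EAA, 8.51, 8.44 and 8.26 with MEA, and 8.12, 8.21 and 8.38 in the reference. Every day 5 array lay below every day 1 array, MEA day 5 replicates 1 and 3 by the least. DPE1 fell by 3.40 with EAA (SE 0.59, adjusted p = 0.000956) and fell by 3.75 in the reference (SE 0.59, adjusted p = 0.000292). The EAA and reference signals of day 5, 4.41 to 4.87, were close to the limit of 4.01 below which probe sets were left out, so the size of these falls is uncertain. Both calls held with each array left out, with differences of -3.47 to -3.29 and -3.80 to -3.67.

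With MEA the DPE1 difference between the days was -1.77 (SE 0.59, adjusted p = 0.105), which did not pass although the days did not overlap. It was -4.00 with MEA day 5 replicate 2 alone, and -0.66 without that replicate. DPE1 passed as higher with MEA than in the reference on day 5, by 2.15 (SE 0.59, adjusted p = 0.0319), yet the groups overlapped. Replicate 2 alone gave -0.08, the other 2 arrays gave 3.26, and the call was lost in 5 of the 6 fits that left out an array, the exception being replicate 2. The 3 MEA arrays of day 5 had an SD of 1.94 for DPE1, whereas no other group exceeded 0.19.

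No extract difference in DPE1 passed on day 1. EAA differed from the reference by -0.11 and MEA by 0.17, with 95% intervals of -1.35 to 1.14 and -1.08 to 1.42. The 9 day 1 arrays fitted alone, a choice made after seeing the data, gave narrower intervals of -0.33 to 0.12 and -0.06 to 0.40. DPE1 read lower with EAA than with MEA in all 3 arrays of day 1, a difference of -0.28, without passing in either fit (adjusted p = 1 and 0.332). On day 5 EAA differed from the reference by 0.24 (interval -1.01 to 1.49).

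PWD (AT5G26570), the phosphoglucan, water dikinase of the plastid, fell between the days in all 3 treatments. On day 5 its log2 signal was 8.25, 8.19 and 8.03 with EAA, 8.82, 8.20 and 9.47 with MEA, and 8.19, 7.95 and 8.09 in the reference. On day 1 it was 9.45, 9.63 and 9.42 with EAA, 9.97, 9.85 and 9.94 with MEA, and 9.96, 10.10 and 10.00 in the reference. Within each treatment all day 5 arrays lay below all day 1 arrays. PWD fell by 1.34 with EAA (SE 0.21, adjusted p = 0.000593), fell by 1.09 with MEA (adjusted p = 0.0132) and fell by 1.94 in the reference (adjusted p = 1.98e-05). The MEA difference was -1.72 with replicate 2 alone, and its call was lost in the fit of the 2 MEA groups alone (adjusted p = 0.425) and without MEA day 1 replicate 1 or 3.

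On day 1 PWD read lower with EAA than with either of the other treatments, with no overlap between the arrays. The difference was -0.52 from the reference (SE 0.21, adjusted p = 1) and -0.42 from MEA (SE 0.21, adjusted p = 1), neither past the threshold in the fit of all groups. In the fit of the 9 day 1 arrays, a choice made after seeing the data, both passed, the latter narrowly (SE 0.09, adjusted p = 0.0129 and 0.0497). With array weights both passed also (adjusted p = 0.0193 and 0.0316). In the fits of the 2 groups compared the difference from the reference passed (adjusted p = 0.0318) and that from MEA did not (adjusted p = 0.0518). Without the MEA day 5 group neither difference passed (adjusted p = 0.0643 and 0.203). MEA differed from the reference on that day by -0.10 (interval -0.55 to 0.36). On day 5 EAA differed from the reference by 0.08 (interval -0.38 to 0.54).

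PWD passed as higher with MEA than in the reference on day 5, by 0.75 (SE 0.21, adjusted p = 0.0371), and here all MEA arrays lay above all reference arrays. MEA replicate 2, at 8.20, exceeded the highest reference array, 8.19, by less than 0.01, and replicate 2 alone gave 0.12. The call was lost in 5 of the 6 fits that left out an array, again except for replicate 2, without which the difference was 1.07. The changes of the EAA and MEA effects on PWD between the days, 0.60 and 0.85, did not pass (adjusted p = 0.996 and 0.227).

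GWD2 (AT4G24450) shares the symbol PWD in the annotation but did not share its fall. On day 5 its log2 signal was 8.29, 7.45 and 7.21 with EAA, 8.08, 8.05 and 7.40 with MEA, and 7.65, 7.83 and 7.87 in the reference. On day 1 it was 7.43, 7.76 and 7.22 with EAA, 7.42, 7.30 and 7.27 with MEA, and 7.02, 7.52 and 7.30 in the reference. The arrays of the 2 days overlapped with EAA and with MEA, and did not in the reference. The day differences were 0.18 with EAA, 0.51 with MEA and 0.50 in the reference (SE 0.25 each, adjusted p = 0.583, 0.263 and 0.135). The reference difference passed as a rise in the fit of the 6 reference arrays alone (adjusted p = 0.0317) and with array weights (0.54, adjusted p = 0.0176), as did the MEA difference with array weights (0.65, adjusted p = 0.0233). In the reference the interval was -0.03 to 1.03, which excludes a fall of the size measured for PWD in the same arrays. No extract difference in GWD2 passed, the 4 values against the reference being -0.13 to 0.19.

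**Figure D2:**
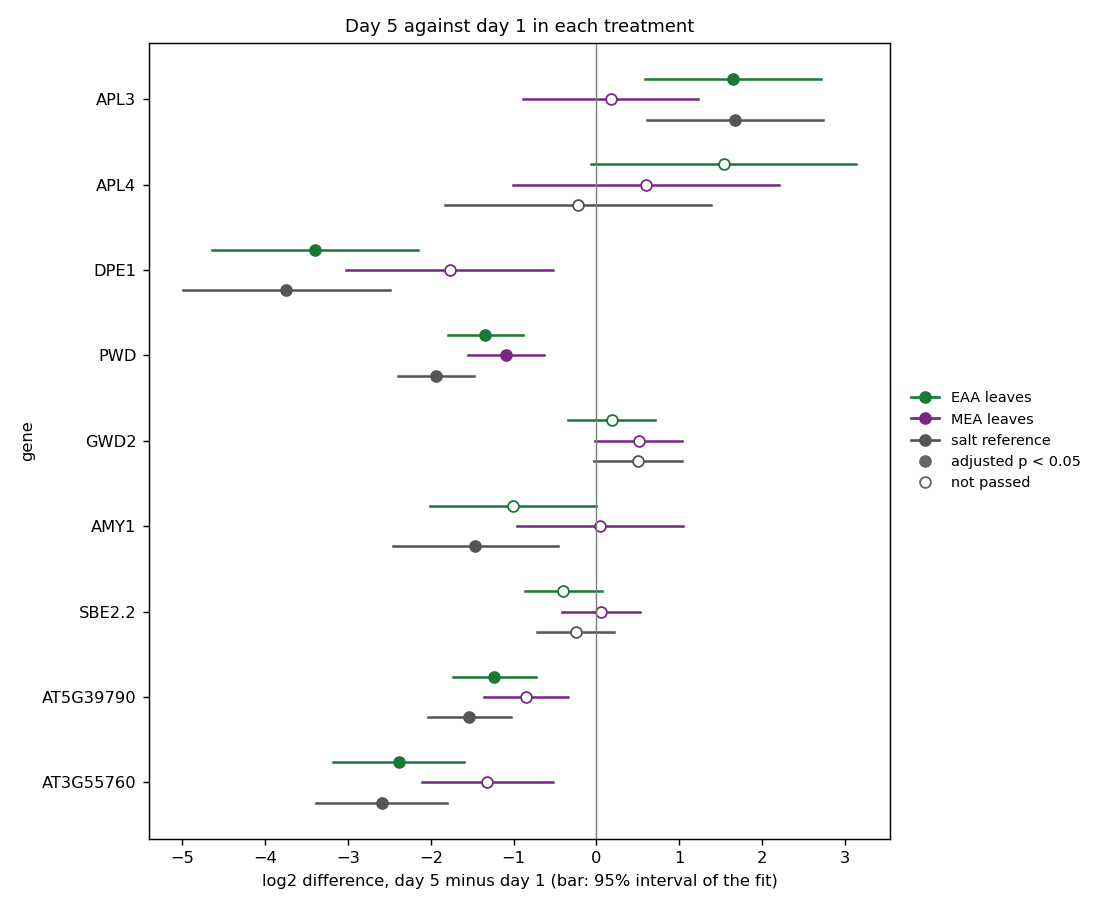
Log2 difference, day 5 minus day 1, for the 5 members and the 4 other measured genes of the starch lists in EAA, MEA and reference leaves; bars are 95% intervals of the fit and filled points passed an adjusted p of 0.05. DPE1, PWD, AT5G39790 and AT3G55760 lie left of 0 in each treatment, and APL3 lies right of 0 with EAA and in the reference.

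Set against all probe sets tested, the members' calls between the days were as follows. Because the members were chosen with earlier results of these data known, the shares are descriptions and carry no test. With EAA 3 of 5 passed, APL3 higher and DPE1 and PWD lower, where 36.5% of all probe sets passed (15.7% higher and 20.8% lower). With MEA 1 of 5 passed, PWD, where 3.92% of all did (1.59% higher and 2.33% lower). In the reference APL3, DPE1 and PWD passed, where 30.9% of all did (14.1% higher and 16.9% lower). The days did not overlap for 4 of 5 members with EAA, 2 with MEA and 4 in the reference, where 56.9%, 20.1% and 53.4% of all probe sets did not. The median difference of the 5 members was 0.18 with EAA, 0.17 with MEA and -0.22 in the reference, against -0.02, -0.04 and -0.01 over all probe sets tested.

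The extract comparisons gave fewer calls. On day 5 DPE1 and PWD passed for MEA against the reference, 2 of 5 where 10.7% of all did, and none passed for EAA against the reference, where 0% of all did (limma, 1017 at an unadjusted p under 0.05, APL4 among them). On day 1 no member passed for EAA against the reference (0.022% of all, 436 at an unadjusted p under 0.05, PWD among them) or for MEA against the reference (0% of all, 169 at an unadjusted p under 0.05). Groups did not overlap for APL4 alone between EAA and the reference on day 5, where 13.9% of all probe sets did not, and for APL3 and PWD on day 1, where 18.6% did not. For MEA and the reference this held for PWD alone on day 5 and for no member on day 1, where 16.6% and 11.7% of all did not. The exact permutation test of 3 arrays against 3 cannot go below p = 0.1, which each pair of groups without overlap reached.

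The extracts were also set against each other. On day 5 no member passed for EAA against MEA (limma, 3.85% of all, 3763 at an unadjusted p under 0.05, APL3, DPE1 and PWD among them), with differences of 1.54 for APL3, 1.11 for APL4, -1.91 for DPE1, -0.67 for PWD and -0.19 for GWD2. Without MEA replicate 2 the differences were 2.37 for APL3, 2.37 for APL4, -3.02 for DPE1 and -0.99 for PWD, and against replicate 2 alone they were -0.11, -1.39, 0.32 and -0.04. The arrays of EAA and MEA overlapped for every member on day 5, where 12.7% of all probe sets did not, and on day 1 for all but DPE1 and PWD, where 16.2% did not. On day 1 no member passed (0.022% of all, 324 at an unadjusted p under 0.05). No member's extract effect changed past the threshold between the days, where 0.00733% of all did for EAA (650 at an unadjusted p under 0.05) and 0.103% for MEA (1902 at an unadjusted p under 0.05, APL3, DPE1 and PWD among them).

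**Figure D3:**
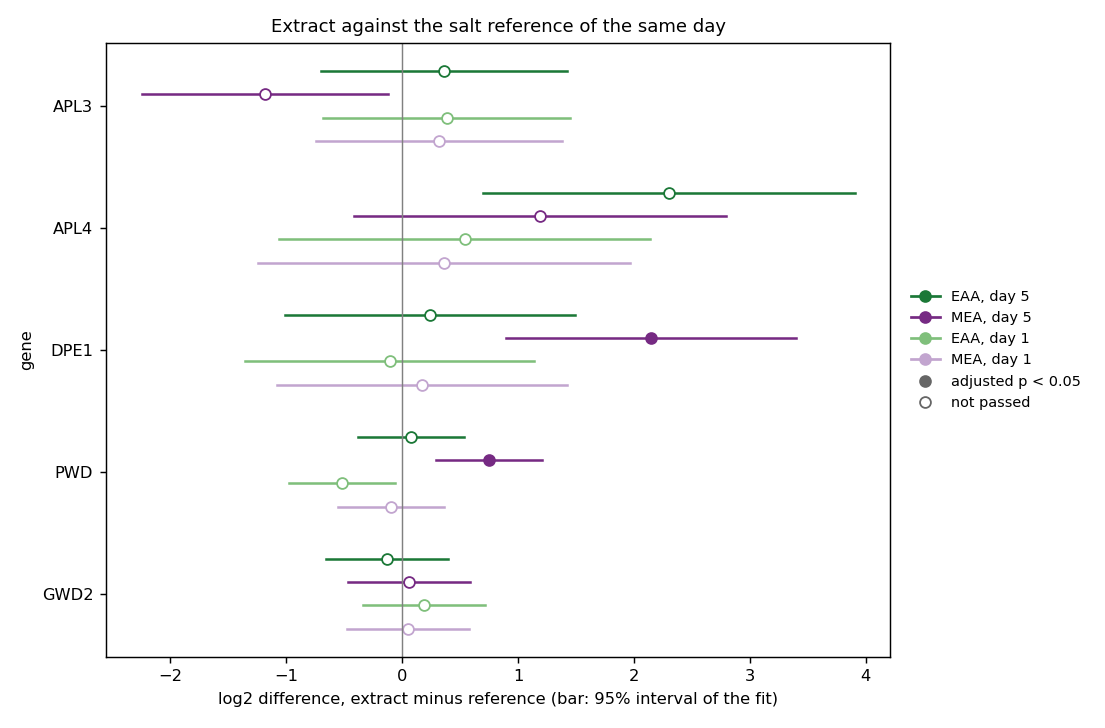
Log2 difference of EAA or MEA from the salt reference of the same day for the 5 members; bars are 95% intervals of the fit and filled points passed an adjusted p of 0.05. The filled points are DPE1 and PWD with MEA on day 5, and the APL4 point with EAA on day 5 lies farthest to the right at 2.30.

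Other genes of the pathway were read from a synthesis list of 20 and a breakdown list of 26 genes, of which 4 and 5 had a named probe set, members included. These lists were also chosen with earlier results of these data known. Of these 9, 1 rose and 4 fell between the days with EAA, none rose and 1 fell with MEA, and 1 rose and 5 fell in the reference, where 20.8%, 2.33% and 16.9% of all probe sets fell. In the synthesis list 1 rose and 1 fell with EAA, and likewise in the reference. In the breakdown list none rose, and 3 fell with EAA and 4 in the reference. SBE2.2, a starch branching enzyme gene, differed by -0.40 with EAA, 0.05 with MEA and -0.25 in the reference, none of which passed. AMY1, an alpha-amylase gene, fell by 1.46 in the reference (SE 0.47, adjusted p = 0.0284) and differed by -1.01 with EAA (adjusted p = 0.104) and by 0.05 with MEA. Listed loci that carry no symbol here moved further. AT3G55760, of the breakdown list, fell by 2.39 with EAA (SE 0.37, adjusted p = 0.000529) and fell by 2.59 in the reference (adjusted p = 0.000152). AT5G39790, of the synthesis list, fell by 1.23 with EAA (SE 0.24, adjusted p = 0.00174) and fell by 1.53 in the reference (adjusted p = 0.000271).

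Against the reference on day 5, 3 of the 9 list genes passed as higher with MEA, AT3G55760 (1.49, SE 0.37, adjusted p = 0.022) beside DPE1 and PWD, where 4.02% of all probe sets were higher. No list gene passed there in the fits of the groups or the day 5 arrays alone. The same held without reference day 5 replicate 2 or 3 or MEA day 5 replicate 1 or 3. None of the 9 passed for either extract on day 1 or for EAA on day 5. Without the MEA day 5 group 2 rose and 5 fell between the days with EAA, and 1, APL4, passed for EAA against the reference on day 5. AT3G55760 read 7.84, 6.15 and 8.14 in the MEA arrays of day 5, against 6.03, 5.87 and 5.76 in the reference, so the replicate with the lowest value was again replicate 2. For EAA against MEA on day 5, AT3G55760 alone of the 9 passed, as lower with EAA (-1.46, SE 0.37, adjusted p = 0.0453), although the arrays overlapped. For that comparison no list gene passed with the replicate number as a block, without the filter or in the fits of the groups or the day 5 arrays alone. Nor did any pass with each EAA day 5 array left out in turn, or without MEA day 5 replicate 1 or 3.

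The split of the MEA day 5 arrays differed in degree among the members. Between the reference means of the days, DPE1 lay at 0.19, 1.02 and 0.07 in replicates 1, 2 and 3, close to the array medians of 0.23, 0.97 and 0.15. PWD lay at 0.62, 0.94 and 0.28, and its value in replicate 1 was above the upper quartile of the 1762 probe sets in that array, 0.45. APL3 lay at -0.35, 1.28 and -0.05, outside the range between the reference means in all 3 arrays. In the EAA arrays of day 5 the same positions were 0.90 to 0.99 for DPE1, 0.91 to 1.03 for PWD and 1.00 to 1.44 for APL3. The cause of the split was not tested.

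**Figure D4:**
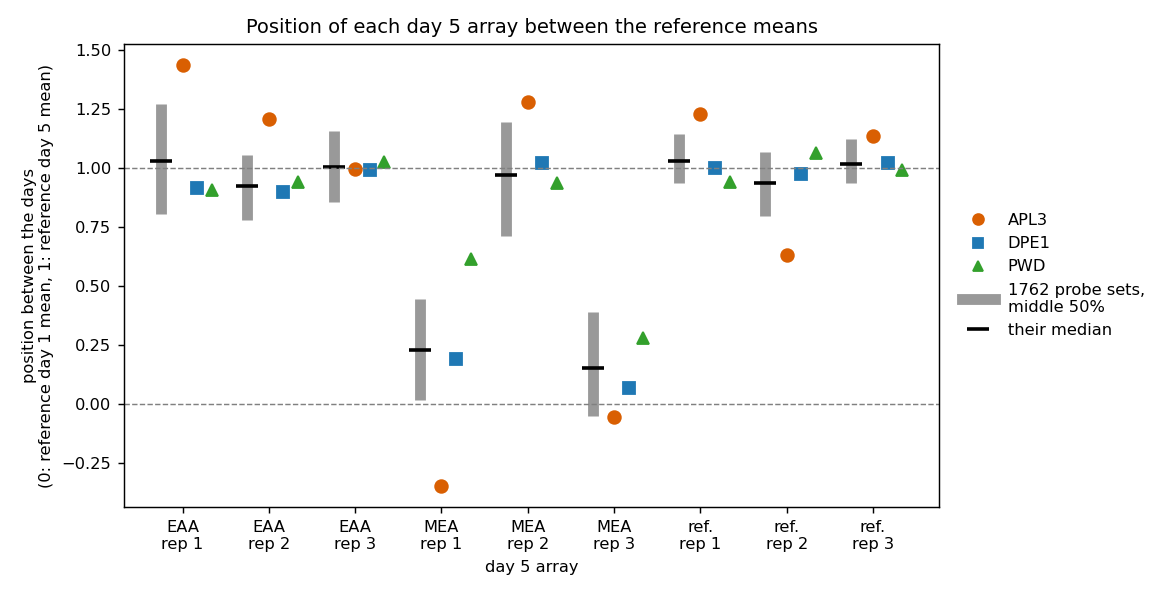
Position of APL3, DPE1 and PWD in each day 5 array on a scale where 0 is the reference mean of day 1 and 1 that of day 5, beside the median and middle 50% of the 1762 probe sets that changed at least 2-fold between these means. MEA replicates 1 and 3 lie near 0 and MEA replicate 2 near 1 for DPE1, as for the array medians.

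The order of the 6 group means differed among the members. For DPE1 the 3 day 1 groups came first (MEA, reference, EAA, from 8.40 to 8.13), then MEA, EAA and the reference of day 5 (6.63, 4.73 and 4.49), and neighbouring groups overlapped except between the days. For PWD the order was reference and MEA on day 1 (10.02 and 9.92), EAA on day 1 (9.50), then MEA, EAA and the reference of day 5 (8.83, 8.16 and 8.08), and the single gap without overlap lay between MEA and EAA of day 1. APL3 ran from EAA and the reference of day 5 (8.82 ± 0.37 and 8.46 ± 0.54, SD, n = 3) to the reference of day 1 (6.78 ± 0.12). APL4 ran from EAA of day 5 (6.26 ± 0.72) to the reference of day 5 (3.97 ± 0.46). For APL3, APL4 and GWD2 every group overlapped its neighbour in the order.

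The genes with profiles most like each member were taken as those with the smallest root mean square difference over the 18 arrays, after each probe set was centred on its own mean, among 1060 other tested probe sets with 1 gene and a symbol. For DPE1 these were WLIM2a (0.28 on the log2 scale), CHL (0.31) and Fes1B (0.34), against a spread of DPE1 around its own mean of 1.76. For PWD they were MAP1C (0.18), TUB9 (0.20) and SERPIN1 (0.25), against 0.81. For APL3 they were AR791 (0.36), ARD4 (0.36) and BOB1 (0.38), against 0.94. APL4 had no neighbour as near, with EXLB1 at 0.54, DI21 at 0.61 and CHI (AT2G43570) at 0.62, against 1.13. For GWD2 the nearest, ATSRL1 at 0.23, was little closer than its own spread of 0.34. No other member was among the 3 nearest of any member.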

How the data were processed

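Per the submitters' processing notes the Affymetrix arrays were processed with MAS5, with no version; the scaling and the log step have no statement in the sources used here. The deposited values are log2 signals, as judged from their range, and no detection calls were used. Probe sets were named from the platform annotation through Entrez IDs and a RefSeq table (TAIR10.1). Coordinates and sequences were not used here. Probe sets whose mean reached the 40th percentile of 22746 (4.01) were kept, and 1 mean per group was fitted to all 18 arrays with limma 3.58.1 in R 4.3.3 (lmFit, eBayes with trend, 12 residual degrees of freedom). P-values were adjusted by Benjamini-Hochberg over 13648 probe sets within each of 11 contrasts. The model was tested on simulated data. Figures used matplotlib 3.10.9 and pandas 2.3.3 under Python 3.11.15. Members and gene lists were chosen with earlier results of these data known. Named are all members, all measured list genes, and for each member the 3 tested genes with a symbol of nearest profile; AT3G55760 and AT5G39790 are list genes without a symbol. Alternatives changed the scaling, filter, variance model, samples fitted and replicate block, and left out each array in turn. The number of arrays limits the precision.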

Additional observations from a re-analysis of the deposited data

How the results depend on the processing

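The falls of DPE1 and PWD between the days with EAA and in the reference kept their direction and passed under all alternatives run. APL3 kept both rises under all alternatives other than leaving out 1 array. PWD with MEA between the days kept -1.09 without passing in the fit of the groups compared alone. On day 5 against the reference, DPE1 (2.15) and PWD (0.75) with MEA did not pass in the fits of the groups compared or of the day 5 arrays alone, which was added after seeing the data, and PWD (0.75) did not pass without the filter. With MEA day 5 reduced to replicate 2, the differences from the reference were -0.080 for DPE1, 0.12 for PWD and 0.47 for APL3, those of EAA from MEA were -0.11 for APL3, -1.39 for APL4 and 0.32 for DPE1, and the changes of the MEA effect were 0.15 for APL3 and -0.25 for DPE1. Array weights turned the day difference with MEA to -0.84 for APL3 (adjusted p = 0.0241) and -0.94 for APL4, APL4 with MEA against the reference on day 5 to -0.23, APL3 with EAA against MEA on day 1 to -0.048, and the change of the MEA effect on APL4 to -0.65; the cause was not tested. The gained calls of APL4 with EAA on day 5, PWD with EAA on day 1 and GWD2 between the days stand with their fits in the results above. Not all gained calls are given there. With array weights DPE1 passed as lower between the days with MEA (-0.89, adjusted p = 0.0074). The same weights gave 2 list genes higher and 4 lower of 9 between EAA and MEA on day 5. They gave 5 higher and 1 lower of 9 in the changes of the MEA effect. For MEA against the reference on day 5 they also gave 5 higher and 1 lower, against 3 and 0 without weights. Since 4 of the 9 are not members, members were among the calls in each. Median centring turned the change of the EAA effect on APL3 to 0.0015 and of the MEA effect on GWD2 to -0.0040.

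Leaving out 1 array gave these ranges. Between the days they were 1.46 to 1.83 (EAA), -0.66 to 0.71 (MEA) and 1.48 to 1.98 (reference) for APL3, -0.66 to 1.47 (MEA) and -0.49 to 0.0089 (reference) for APL4, -1.41 to -0.77 for PWD with MEA and -0.14 to 0.40 for GWD2 with EAA. Against the reference on day 5 they were 1.47 to 3.26 for DPE1, 0.43 to 1.07 for PWD, -0.067 to 2.06 for APL4 and -0.059 to 0.28 for GWD2 with MEA, and -0.45 to 0.091 for GWD2 with EAA. With MEA on day 1 they were -0.010 to 0.69 for APL4 and -0.077 to 0.17 for GWD2. For EAA against MEA they were -0.17 to 0.26 for APL3, -0.15 to 0.55 for APL4 and -0.0059 to 0.26 for GWD2 on day 1, and -0.51 to 0.031 for GWD2 on day 5. For the change of the EAA effect on APL3 the range was -0.33 to 0.17, and for that of the MEA effect -0.43 to 1.69 for APL4 and -0.11 to 0.23 for GWD2.

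The replicate numbers were not treated as pairs, since same-numbered deviations correlated at -0.44 to 0.43 and in 0 of 9 comparisons was every pair over 0.1. EAA against the reference on day 1 came nearest, at 0.14, 0.16 and 0.098. There each EAA replicate correlated best with the reference replicate of its own number, so pairing in that comparison is not excluded. With the replicate number as a block no member's call changed, and DPE1 in the reference still fell by 3.75. Counts of probe sets passing moved more. For EAA against the reference on day 5 the count was 0 with all groups, 216 without the MEA day 5 group, 426 with array weights and 4 in the groups alone. On day 1 it was 3 with all groups, 25 without the MEA day 5 group, 131 with array weights, 151 in the groups alone, 193 in the day 1 arrays, 1 with the block and 0 with the filter at the 60th percentile. For MEA against the reference it was 1456 on day 5, against 6015 with array weights and 0 in the groups or the day 5 arrays alone. On day 1 it was 0 for MEA against the reference, against 1 in the day 1 arrays. Between the days with MEA it was 535, against 3233 with array weights and 0 in the groups alone. Array weights gave 7595 in place of 4975 between the days with EAA and 7115 in place of 4220 in the reference. For EAA against MEA on day 5 it was 526, against 301 without the filter, 6208 with array weights, 271 with the block and 0 in the groups or day 5 arrays alone. On day 1 it was 3 for EAA against MEA, against 1 with the stricter filter, 120 with array weights and 10 without the MEA day 5 group. For the same comparison it was 169 in the groups alone, 107 in the day 1 arrays and 0 with the block. For the change of the EAA effect it was 1, against 302 with array weights, 98 without the MEA day 5 group, 57 in the groups alone and 0 with the block. For that of the MEA effect it was 14, against 6 with quantile normalization or no filter, 4492 with array weights, 4 with the block and 0 in the groups alone. APL4 was not tested under the stricter filter, and signals near the low end limit the size of its differences.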

Other observations

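AMY1 did not follow the split of the MEA day 5 arrays seen for DPE1. Its log2 signal was 7.29, 8.25 and 5.98 in MEA day 5 replicates 1, 2 and 3, against 6.50, 6.43 and 5.82 in the reference of day 5. Replicate 2, which lay at the day 5 end for most probe sets, was thus higher for AMY1 than every reference array of day 5, and AMY1 was singled out after its values were seen. SBE2.2 read 8.32, 7.97 and 8.84 in the same MEA arrays, against 8.08, 8.27 and 7.80 in the reference, and the groups overlapped.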
